A study of Mus musculus with 24 samples.

Results

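The genes described here are the nuclear genes of respiratory complexes I to IV. They were taken as every row of the RNA count table whose symbol belongs to the subunit families Ndufa, Ndufb, Ndufc, Ndufs, Ndufv, Uqcr, Sdha to Sdhd and Cox4 to Cox8 and that had 10 or more counts in each strain. Of the 34039 genes in the table, 66 symbols matched and 64 were kept, namely 35 of complex I, 4 of complex II, 8 of complex III and 17 of complex IV. Ndufa4 is counted with complex IV, the complex it is now assigned to. Cox8b, with 1 count in DBA and 30 in BL6, and Cox6c2, with 2 counts in DBA and 0 in BL6, fell under the minimum. The tissue was amygdala from adult males of 2 inbred mouse strains, DBA and BL6, aged 10 to 16 weeks, for which the labels name no transgene and no treatment. Each strain had 2 RNA and 2 ATAC libraries, each from the pooled tissue of about 2 animals. Nuclei for RNA were sorted on NeuN, a nuclear protein of neurons, at a stated 75% neuronal and 25% other nuclei. The ATAC nuclei were selected with a DNA dye and no neuronal marker. Among the RNA nuclei counted, types named as non-neuronal made up 45.9% and 30.1% in DBA and 36.6% and 53.0% in BL6. Counts had been summed by the authors over 22 cell types of their own naming, and those tables number the libraries of either strain 2 and 3. Since nothing says that the libraries of a strain are more than separate pools of tissue, p-values measure only the spread between these pools, which may be technical.

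The respiratory chain sits in the inner membrane of the mitochondrion. Complex I (NADH dehydrogenase) and complex II (succinate dehydrogenase, also an enzyme of the tricarboxylic acid cycle) pass electrons to coenzyme Q, complex III passes them on to cytochrome c, and complex IV (cytochrome c oxidase) passes them to oxygen, while I, III and IV pump protons. Most subunits are encoded in the nucleus and, in complexes I, III and IV, joined after import to core subunits encoded by the mitochondrial genome. Neurons depend on this chain for the ATP that restores ion gradients after firing. Several complex IV subunits exist as paralogs, a common form and a form known from muscle, testis or lung.

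The RNA libraries held 32133813 and 50637086 counts in DBA and 66304405 and 30693629 in BL6, from 2867 and 6276 nuclei in DBA and 8079 and 4426 in BL6. Levels are given as CPM, the counts of a gene scaled to a fixed total of the library or of the named group of nuclei. CPM is thus a share of the counts and not an amount per nucleus. Library 2 of DBA stood apart for these genes: its summed level was the lowest of the 4 libraries in 18 of the 20 cell types tested, while it had the most counts per nucleus (11208, against 8068 in the other DBA library and 8207 and 6935 in BL6). The counts of genes called between strains over all nuclei, in the class sums and over cell types are therefore also given without it. Markers went with the cell type names: those of astrocytes, oligodendrocytes, oligodendrocyte precursors and microglia were highest in NN-Astro, NN-ODC, NN-OPC and NN-MGC. Markers of ependymal cells and choroid plexus, not a named type, summed to 0.778 and 0.691 CPM in DBA and to 182 and 2.80 CPM in BL6, the highest value being that of BL6 library 2, and their part in the results was not tested. The gene sets counted also differed between strains. With 100 or more counts in one strain as the minimum, 2200 genes had counts in DBA and none in BL6, and 96 had counts in BL6 and none in DBA.

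The summed level of the 64 genes was lowest in Exc-Tafa1, an excitatory type. It was highest in a small type named as neuronal and in types named for vascular and meningeal cells. In Exc-Tafa1, the lowest type, it was 1033 and 1293 CPM in DBA and 1415 and 1399 CPM in BL6. In Neuronal-Aldoa-Cst3, the tested type with the highest mean over 4 libraries, it was 2764 and 4195 CPM in DBA and 4685 and 5310 CPM in BL6. NN-VLMC, named for vascular leptomeningeal cells, came next with 2656 and 4716 CPM in DBA and 3966 and 4879 CPM in BL6. In DBA alone the mean of NN-VLMC, 3686 CPM, lay above that of Neuronal-Aldoa-Cst3, 3479.5 CPM. The range over types was thus wider than the spread between libraries. Counts per nucleus also differed between types. In DBA library 2, 194 nuclei of Exc-Tafa1 gave 4079261 counts and 37 of Neuronal-Aldoa-Cst3 gave 144014. In BL6 library 2, 641 nuclei of Exc-Tafa1 gave 8678828 counts and 217 of Neuronal-Aldoa-Cst3 gave 723944. Whether depth has a part in the order of types was not tested. Of 19 neighbouring pairs in the order, only Exc-Tafa1 and Inh-Drd2 (mean 1490 CPM) differed by more than the larger SD over 4 libraries. This SD includes the difference between strains, and types of the same library were not paired. NN-Endo-VLMC, for example, lay above its neighbour NN-MGC in each library. It had 1959 and 2672 CPM in DBA and 4177 and 4371 CPM in BL6. NN-MGC had 1933 and 2244 CPM in DBA and 3208 and 2664 CPM in BL6. Glial types were spread over the order. Over 4 libraries, NN-MGC and NN-Astro had means of 2513 and 2458 CPM, above every excitatory and inhibitory type. NN-ODC had 1987 CPM and NN-OPC 1740 CPM, below several inhibitory types. In DBA alone the means of NN-MGC and NN-Astro, 2089 and 2146 CPM, lay below that of Exc-Tfap2c, 2203 CPM. In NN-Astro the sum was 2045 and 2247 CPM in DBA and 2881 and 2657 CPM in BL6. Among inhibitory types, Inh-Lypd6b and Inh-Sst had the highest means, 2327 and 2161 CPM, and Inh-Drd2 the lowest. Neuronal-Aldoa-Cst3 is in none of the class sums used below, and its share of nuclei was 1.29% and 0.653% in DBA and 2.69% and 3.32% in BL6. Its markers were mixed. Those of neurons summed to 2900 CPM, against a median of 3015 CPM over types, and those of microglia to 133 against 149 CPM. Those of excitatory neurons summed to 182 against 32.9 CPM and of inhibitory neurons to 263 against 68.5 CPM. Those of oligodendrocytes summed to 303 against 91.7 CPM and of astrocytes to 228 against 32.7 CPM. Those of erythrocytes summed to 28.9 against 3.53 CPM and of VLMC to 11.5 against 2.45 CPM. Those of ependymal and choroid plexus cells summed to 300 against 31.7 CPM. Whether its nuclei are of a single kind was not tested.

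**Figure D1:**
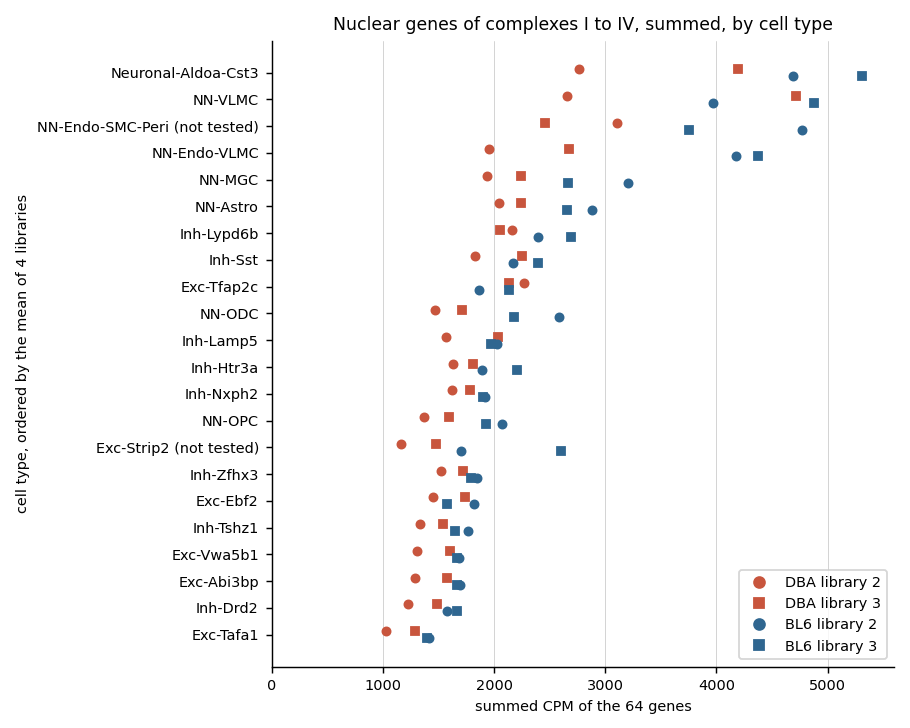
Summed CPM of the 64 genes (x axis) in each of the 22 cell types (y axis, ordered by the mean of 4 libraries), with 1 point per library, circles for library 2 and squares for library 3. DBA points lie left of both BL6 points in 15 of the 20 tested types, and library 2 of DBA is the lowest point in 18.

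The 4 complexes ordered the cell types much alike. Over the 20 tested types, Spearman's rho between the summed levels of complexes I and IV was 0.98, between I and III 0.96 and between I and II 0.83; the points share libraries and depth, so these are descriptions. The sum of cytosolic ribosomal protein genes was also low in Exc-Tafa1 and Inh-Drd2 (means of 1830 and 1847 CPM). It was high in Neuronal-Aldoa-Cst3 and NN-VLMC (7313 and 7537 CPM). Of the 64 genes, 28 had their highest mean in Neuronal-Aldoa-Cst3, 22 in NN-VLMC and 8 in NN-Endo-VLMC, and 30 had their lowest in Exc-Tafa1 and 16 in Inh-Drd2. For the 59 genes at 5 CPM or more over all nuclei and above 3 counts in their lowest type, the highest type mean was up to 9.59 times the lowest, with a median of 4.64.

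In complexes I and III the genes with the widest range were small accessory subunits. Ndufb11, an accessory subunit of the membrane arm of complex I, had 31.4 and 85.0 CPM in DBA and 143 and 52.0 CPM in BL6 in NN-VLMC, from 7 to 20 counts a library. In Exc-Tafa1 it had 5.64 and 8.26 CPM in DBA and 8.99 and 9.56 CPM in BL6, below every NN-VLMC library. Ndufa13, which is also known as GRIM-19, had a mean of 143 CPM in NN-VLMC against 15.7 CPM in Inh-Drd2, and Ndufa11 had 90.4 against 10.1 CPM in the same types. In complex III, Uqcr11 (84.0 CPM in NN-VLMC against 10.0 CPM in Exc-Abi3bp), Uqcrb (75.5 against 10.9 CPM in Exc-Tafa1) and Uqcr10 (68.9 against 10.2 CPM in Exc-Tafa1) ranged most. In complex II, Sdhd and Sdhc, the membrane anchors, ranged 3.97 and 2.43 times and Sdha, the flavoprotein that oxidises succinate, 2.34 times. In complex IV, Ndufa4 (168 CPM in Neuronal-Aldoa-Cst3 against 20.9 CPM in Exc-Tafa1), Cox5b (68.7 against 11.7 CPM) and Cox8a (240 against 41.7 CPM, the same types for each) ranged most among genes at 5 CPM or more over all nuclei and above 3 counts in their lowest type; paralogs at 0 in some type, described next, have no such ratio. Ndufs4, which joins late in the assembly of complex I and whose loss in mice gives a model of Leigh syndrome, was highest in Inh-Lypd6b. It had 173 and 152 CPM in DBA and 131 and 134 CPM in BL6 there, and a mean of 65.6 CPM in NN-ODC.

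Among the paralogs of complex IV, the common forms were measured in every tested type, and most of the others were low in most types. Cox6a2, the heart and skeletal muscle form of subunit 6A, was concentrated in Inh-Sst, the type named for the neuropeptide somatostatin. It had 5.61 and 12.3 CPM in DBA and 9.44 and 18.0 CPM in BL6 there, from 109 counts in all, against a median of 0.611 CPM over the tested types. Every Inh-Sst library lay above 5 CPM, while the next type, Inh-Lamp5, rested on 8 counts. Cox6b2, the testis form of subunit 6B, was a non-neuronal gene in these nuclei. Its means were 71.3 CPM in NN-VLMC, 44.1 CPM in NN-Endo-VLMC, 14.2 CPM in NN-ODC, 12.5 CPM in NN-Astro and 10.5 CPM in NN-OPC. In NN-Astro it had 17.1 and 12.4 CPM in DBA and 10.5 and 10.3 CPM in BL6, and in the excitatory sum it stayed between 0.194 and 0.372 CPM in all 4 libraries.

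**Figure D2:**
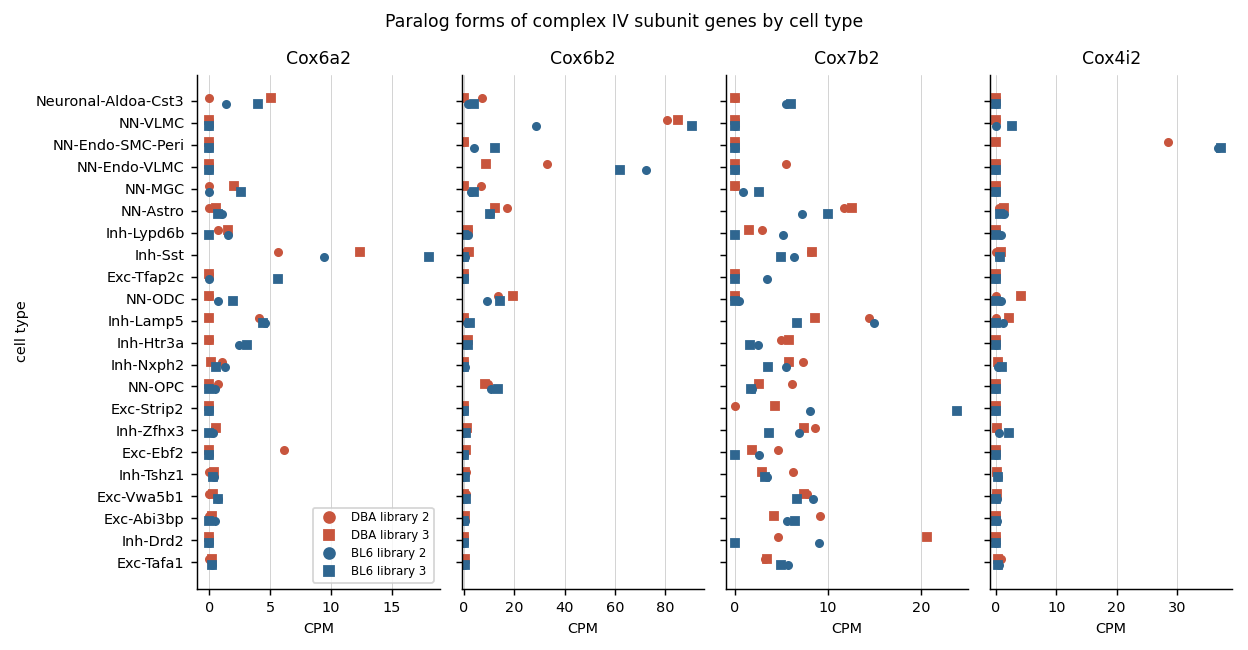
CPM (x axis, a scale for each gene) of Cox6a2, Cox6b2, Cox7b2 and Cox4i2 in the 22 cell types (y axis, in the order of the summed level), with 1 point per library. Cox6a2 is highest in Inh-Sst, Cox6b2 in NN-VLMC and NN-Endo-VLMC, and Cox4i2 in NN-Endo-SMC-Peri.

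Cox4i2, the form of subunit 4 known from lung and from cells that sense low oxygen, was highest in NN-Endo-SMC-Peri, a type of few nuclei that was not tested. It had 28.5 and 0 CPM in DBA and 36.9 and 37.3 CPM in BL6 there, from 1 and 0 counts in DBA and 9 and 6 in BL6. Markers of endothelial cells, mural cells, ependymal and choroid plexus cells and erythrocytes were also highest in that type, at 2327, 1619, 1710 and 385 CPM, so the markers there are those of several cell types. In the tested types the highest mean of Cox4i2 was 1.22 CPM. Cox7b2, a paralog of Cox7b, had its highest mean, 11.1 CPM, in Inh-Lamp5 and 10.4 CPM in NN-Astro. It was at 0 counts in all 4 libraries of NN-VLMC, which have few counts. Cox7a1, the muscle form of subunit 7A, had 5 counts in NN-VLMC, its highest tested type, and a mean of 0.483 CPM over all nuclei. Cox8b, the muscle form of subunit 8, had 6 of its 31 counts in NN-Endo-SMC-Peri, all in BL6 library 2. The common forms Cox6a1, Cox6b1, Cox7a2, Cox8a and Cox4i1 had means of 40.3, 25.2, 35.0, 68.8 and 67.1 CPM over all nuclei, values that depend on transcript length and are not ranked here. Cox7a2l, a protein that joins complexes III and IV in supercomplexes, had 14.0 and 17.6 CPM in DBA and 20.9 and 20.9 CPM in BL6 over all nuclei, and the test did not call it (adjusted p = 0.309).

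Set against the excitatory sum, with each library as a block, most of these genes held a higher share of the counts in non-neuronal nuclei. Levels per nucleus were not compared. Counts per nucleus differed: in DBA library 2, 194 nuclei of Exc-Tafa1 gave 4079261 counts and 632 of NN-Astro gave 3752826. Of 63 genes tested with edgeR's quasi-likelihood test and Benjamini-Hochberg adjustment, 55 were higher in the non-neuronal sum, where 39.1% of all genes were called higher, and 1, Ndufa10, was lower, where 37.7% were called lower. Their median log2 difference was 0.59, against 0.02 for all genes. Cox6b2 (5.42 ± 0.24 SE, adjusted p = 8e-10) and Cox4i2 (2.21 ± 0.48, adjusted p = 0.0012) had the largest differences, followed by Ndufb11 (1.18 ± 0.10, adjusted p = 2.83e-07) and Ndufb7 (0.92 ± 0.10, adjusted p = 3.89e-06). Ndufa10, an accessory subunit of complex I, had 44.0 and 42.1 CPM in non-neuronal nuclei of DBA and 51.9 and 47.0 CPM in those of BL6, against 56.5 and 63.97 CPM and 56.1 and 54.9 CPM in excitatory nuclei of the same libraries. In each of the 4 libraries it was lower in non-neuronal nuclei, by -0.48 ± 0.07 on the log2 scale (adjusted p = 3.16e-05). Scaling by total counts alone moved the median of all genes in this contrast by 0.16 and left 57 genes higher and 1 lower. The higher level was not particular to these genes. Of 78 cytosolic ribosomal protein genes 70 were higher (median 0.75), of 17 ATP synthase genes 13 (median 0.50). All 10 chain genes of the mitochondrial genome were higher (median 0.99). Of 15 assembly factors of complex I, 4 were higher and 5 lower, with a median of 0.04.

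In the inhibitory sum 33 of the 63 genes were higher than in the excitatory sum, against 11.8% of all genes, and none was lower, against 14.0% of all genes. Their median log2 difference was 0.27, and 43 of the 63 had an unadjusted p under 0.05. Cox6a2 had 1.40 and 1.84 CPM in inhibitory nuclei of DBA and 2.01 and 3.43 CPM in those of BL6, against 0.387 and 0.186 CPM and 0.424 and 0.372 CPM in excitatory nuclei. Its log2 difference was 2.58 ± 0.31 (adjusted p = 7.78e-05), and every inhibitory sum lay above every excitatory sum. Ndufa8 (0.47 ± 0.10, adjusted p = 0.00492), Ndufa4 (0.42 ± 0.08, adjusted p = 0.00166) and Cox7b (0.40 ± 0.09, adjusted p = 0.00445) followed. The number called fell to 14 when DBA library 2 or BL6 library 3 was left out.

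Over all nuclei, 6 of the 64 genes were lower in DBA than in BL6 (edgeR, adjusted p under 0.05), where 3.18% of all genes were called lower, and none was higher, where 1.71% were. The genes were Cox4i1, Cox5b and Cox6c of complex IV and Ndufb4, Ndufs5 and Ndufb10 of complex I. Of the 64, 54 had a log2 fold change below 0, with a median of -0.28 against -0.01 for all genes, and 22 had an unadjusted p under 0.05. Both DBA libraries lay below both BL6 libraries for 46 of the 64, which was so for 28.3% of all genes tested. DESeq2 called 9 lower and 1, Sdhc, higher. Leaving out either DBA library left 1 call, Cox4i1, and without DBA library 2 the median was -0.17. In bulk sums of nuclei, fewer nuclei of a type that holds much of an RNA and less of it per nucleus cannot be told apart, and the non-neuronal share of nuclei was 45.9% and 30.1% in DBA and 36.6% and 53.0% in BL6. Of the 12 marker lists, 5 had both DBA libraries below both BL6 libraries over all nuclei. Besides the ependymal list, these were oligodendrocytes (512 and 320 CPM in DBA, 622 and 789 CPM in BL6), microglia (229 and 200.0 CPM in DBA, 250.8 and 257.7 CPM in BL6), endothelial cells (11.7 and 7.58 CPM in DBA, 15.2 and 22.3 CPM in BL6) and erythrocytes (2.33 and 4.23 CPM in DBA, 9.15 and 13.6 CPM in BL6). Their part in the result was not tested.

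**Figure D3:**
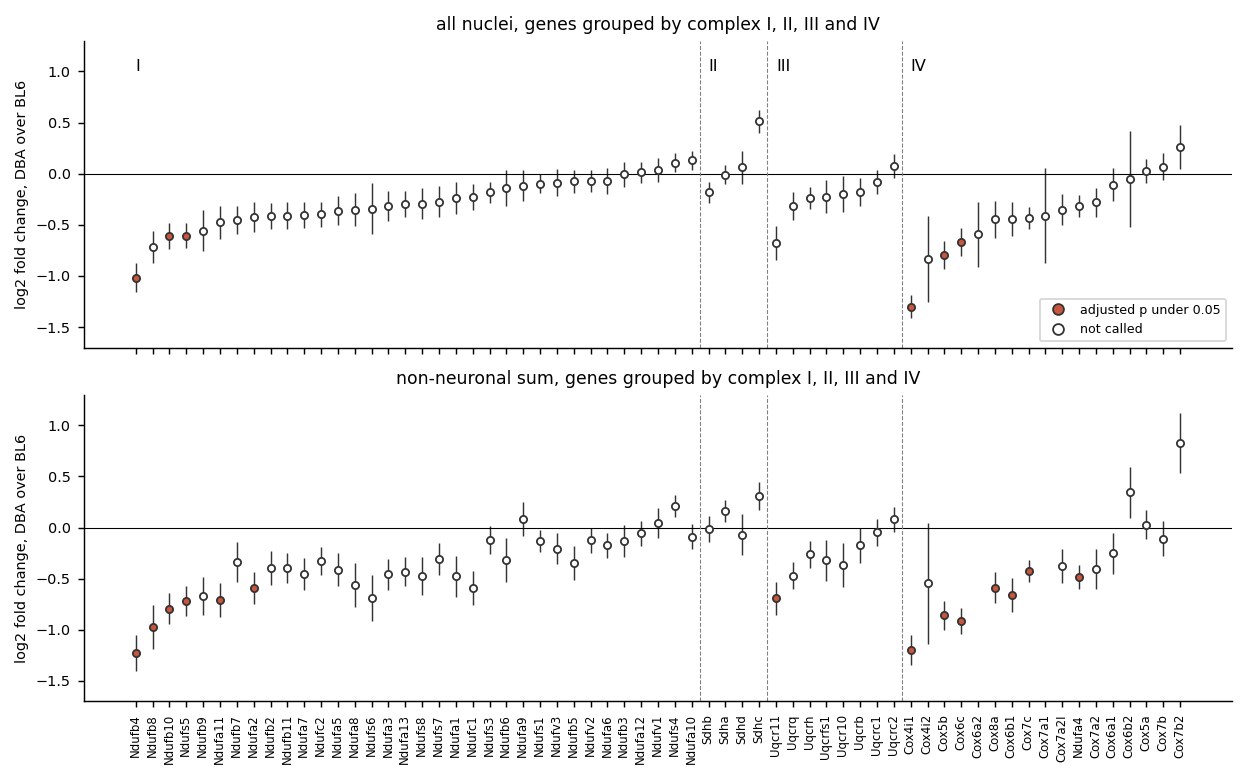
Log2 fold change of DBA over BL6 (y axis, bars ± SE) for 63 of the genes (x axis, grouped by complex and ordered by the all-nuclei value), over all nuclei (upper panel) and in the non-neuronal sum (lower panel); filled points passed an adjusted p of 0.05. All filled points lie below 0, 6 over all nuclei and 14 in the non-neuronal sum.

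Cox4i1, the common form of subunit 4 of cytochrome c oxidase, had the lowest fold change. It had 34.7 and 40.9 CPM in DBA and 97.0 and 95.9 CPM in BL6, a log2 fold change of -1.30 ± 0.11 (SE, adjusted p = 0.00115). Both DBA libraries were under 41 CPM and both BL6 libraries above 95 CPM. Cox5b, a subunit that binds zinc, had 12.5 and 14.8 CPM in DBA and 23.9 and 25.1 CPM in BL6 (-0.79 ± 0.14, adjusted p = 0.0215). Its partner at the matrix side, Cox5a, had 36.6 and 40.2 CPM in DBA and 41.0 and 37.2 CPM in BL6 (0.02 ± 0.12, adjusted p = 0.96), with overlapping strains. Cox6c had 34.4 and 40.8 CPM in DBA and 55.3 and 68.5 CPM in BL6 (-0.66 ± 0.14, adjusted p = 0.0427). Cox7c had 69.5 and 80.8 CPM in DBA and 104 and 106 CPM in BL6, and its adjusted p of 0.0748 missed the threshold.

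Among the 11 tested genes on the list of paralogs, only Cox4i1 was called over all nuclei. Cox6a1 had 31.8 and 44.4 CPM in DBA and 41.9 and 43.3 CPM in BL6, and Cox6b2 4.05 and 2.27 CPM in DBA and 1.93 and 4.95 CPM in BL6, both with overlapping strains. Cox8a (46.2 and 67.8 CPM in DBA, 73.9 and 87.2 CPM in BL6) and Cox6b1 (17.6 and 24.2 CPM in DBA, 28.6 and 30.2 CPM in BL6) did not overlap but were not called, with adjusted p of 0.287 and 0.246. Cox6a2 (0.778 and 0.948 CPM in DBA, 1.16 and 1.60 CPM in BL6), Cox7a2 (27.2 and 34.9 CPM in DBA, 40.0 and 38.0 CPM in BL6), Cox7a1 and Cox4i2 were not called either. Ndufa4 had 32.4 and 34.9 CPM in DBA and 42.4 and 44.4 CPM in BL6 (-0.32 ± 0.10, adjusted p = 0.179).

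In complex I the called genes were accessory subunits. Ndufb4 had 8.65 and 9.20 CPM in DBA and 19.3 and 18.1 CPM in BL6 (-1.02 ± 0.14, adjusted p = 0.00899), Ndufs5 20.6 and 20.6 CPM in DBA and 34.2 and 30.6 CPM in BL6 (-0.61 ± 0.12, adjusted p = 0.0376), and Ndufb10 13.1 and 14.4 CPM in DBA and 21.7 and 21.8 CPM in BL6 (-0.61 ± 0.13, adjusted p = 0.0459). None of the 3 overlapped between strains. Ndufb8, another subunit of the membrane arm, had 11.3 and 14.5 CPM in DBA and 21.1 and 22.8 CPM in BL6 and an adjusted p of 0.0536. The 28 accessory subunits had a median log2 fold change of -0.35 with 3 called, and the 7 core subunits, which carry electrons, had a median of -0.18 with none called; the difference between these groups was not tested, and the split by role was made after the values were seen. Ndufs4 had 115 and 125 CPM in DBA and 115 and 116 CPM in BL6.

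Complexes II and III had no call over all nuclei. The summed level of complex II was 149.0 and 148.5 CPM in DBA and 149.9 and 150.1 CPM in BL6, and that of complex IV 416 and 511 CPM in DBA and 632 and 661 CPM in BL6. Sdhc, a membrane anchor of succinate dehydrogenase, had 26.9 and 26.2 CPM in DBA and 19.4 and 19.1 CPM in BL6 (0.51 ± 0.11, adjusted p = 0.0553), with both DBA libraries above both BL6 libraries. Sdha had 83.8 and 82.7 CPM in DBA and 87.8 and 85.3 CPM in BL6, Sdhb, the iron-sulfur subunit, 29.6 and 30.7 CPM in DBA and 34.6 and 36.3 CPM in BL6, and Sdhd 8.74 and 8.87 CPM in DBA and 8.17 and 9.32 CPM in BL6. Of the 4, Sdhc was thus the only one with DBA above BL6 in every library. In complex III, Uqcr11 had 10.8 and 12.2 CPM in DBA and 16.8 and 21.4 CPM in BL6 (-0.68 ± 0.16, adjusted p = 0.071). Uqcrc2, a core protein, had 43.9 and 40.1 CPM in DBA and 43.7 and 38.5 CPM in BL6. Uqcrb (adjusted p = 0.622) and Uqcr10 (adjusted p = 0.692) were not called.

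Within classes of nuclei the lower level in DBA was called for more genes in the non-neuronal sum than in the neuronal sums. In the non-neuronal sum 14 of 62 genes were lower, against 4.96% of all genes, and none was higher, against 3.29%; the median log2 fold change was -0.36, and both DBA libraries lay below both BL6 libraries for 49 genes, against 37.8% of all genes. DESeq2 called 9 lower and none higher there, and 31 of the 62 had an unadjusted p under 0.05. The 14 were Ndufb4, Ndufb8, Ndufb10, Ndufs5, Ndufa11 and Ndufa2 of complex I, Uqcr11 of complex III, and Cox4i1, Cox5b, Cox6c, Cox6b1, Cox8a, Cox7c and Ndufa4 of complex IV. Without DBA library 2 the number was 3, without DBA library 3 it was 8, and the median without DBA library 2 was -0.22. In the inhibitory sum 6 of 61 genes were lower (5.38% of all genes) and 1 higher (3.24% of all genes), with a median of -0.16, and 34 genes had both DBA libraries below both BL6 libraries (26.8% of all genes). In the excitatory sum 3 of 60 were lower (6.14% of all genes) and 1 higher (3.53% of all genes), with a median of -0.19, and 19 had both DBA libraries below (27.1% of all genes). The count in the excitatory sum thus lay near the background, and the medians without DBA library 2 were -0.01 in the excitatory and -0.06 in the inhibitory sum. The excitatory sum had 2 calls without DBA library 2, 9 without DBA library 3 and 2 without BL6 library 2, and the inhibitory sum 3 without DBA library 2 and 2 without BL6 library 2.

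Cox4i1 was lower in each class. It had 25.8 and 34.3 CPM in DBA and 80.0 and 70.7 CPM in BL6 in excitatory nuclei, 33.4 and 38.2 CPM in DBA and 88.1 and 79.8 CPM in BL6 in inhibitory nuclei, and 48.2 and 65.1 CPM in DBA and 147 and 134 CPM in BL6 in non-neuronal nuclei. The log2 fold changes were -1.29 ± 0.13, -1.21 ± 0.10 and -1.20 ± 0.15 (adjusted p = 1.48e-05, 1.14e-05 and 0.000649), and each stayed called with any library left out. Ndufb4 was also lower in all 3 classes, with log2 fold changes of -0.80 ± 0.20, -0.86 ± 0.16 and -1.22 ± 0.18 (adjusted p = 0.0178, 0.00473 and 0.00136). Sdhc was higher in both neuronal classes. It had 23.4 and 23.8 CPM in DBA and 17.2 and 13.4 CPM in BL6 in excitatory nuclei (0.62 ± 0.15, adjusted p = 0.0182) and 27.0 and 26.9 CPM in DBA and 17.8 and 18.1 CPM in BL6 in inhibitory nuclei (0.61 ± 0.12, adjusted p = 0.00819). In non-neuronal nuclei it had 31.4 and 30.7 CPM in DBA and 27.9 and 26.4 CPM in BL6 (0.30 ± 0.14, adjusted p = 0.238).

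**Figure D4:**
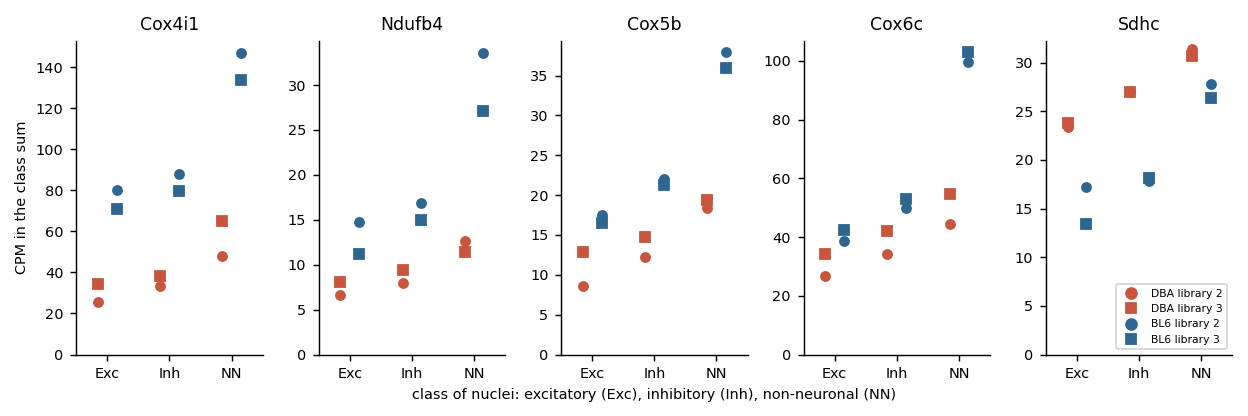
CPM (y axis, from 0) of Cox4i1, Ndufb4, Cox5b, Cox6c and Sdhc in the excitatory, inhibitory and non-neuronal sums (x axis), with 1 point per library, DBA left of BL6. DBA points lie below BL6 points for the first 4 genes in each class and above them for Sdhc.

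The difference between strains was itself compared between classes. Between non-neuronal and excitatory nuclei 1 of 63 genes was called, Cox6c, against 3.39% of all genes called in either direction, and 11 of the 63 had an unadjusted p under 0.05. Cox6c, a small subunit of complex IV, had 44.5 and 54.8 CPM in DBA and 99.7 and 103 CPM in BL6 in non-neuronal nuclei, against 26.6 and 34.3 CPM in DBA and 38.7 and 42.5 CPM in BL6 in excitatory nuclei. Its log2 fold change in non-neuronal nuclei minus that in excitatory nuclei was -0.52 ± 0.10 (adjusted p = 0.0155). With any 1 of DBA library 2, DBA library 3 or BL6 library 2 left out, no gene was called. Between inhibitory and excitatory nuclei edgeR called 0 of 63, none had an unadjusted p under 0.05, and 0.0308% of all genes were called.

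Single cell types gave 54 calls lower in DBA and 3 higher among 1025 tests of these genes, against 3.61% lower and 2.18% higher over all genes. NN-Astro had 11 of 61 lower (5.12% of all genes), NN-OPC 8 of 60 (3.66% of all genes), NN-ODC 7 of 60 (4.89% of all genes) and Inh-Tshz1 7 of 60 (6.29% of all genes). Their medians were -0.22, -0.35, -0.43 and -0.23 on the log2 scale. Cox4i1 had a log2 fold change below 0 in all 20 types and was called in 13, from -0.93 ± 0.17 in NN-OPC to -1.60 ± 0.16 in Exc-Tafa1. In Exc-Tafa1 it had 20.3 and 25.1 CPM in DBA and 76.7 and 65.9 CPM in BL6, and in NN-Astro 45.0 and 62.4 CPM in DBA and 171 and 137 CPM in BL6. Cox7c was called in 6 types, Cox6c, Cox5b and Ndufb4 in 4 each, and Ndufb8 and Cox8a in 3 each.

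Cox6c was called in 3 glial types and in Inh-Tshz1. In NN-ODC it had 41.6 and 50.5 CPM in DBA and 119 and 106 CPM in BL6 (-1.15 ± 0.20, adjusted p = 4.03e-05), and in NN-OPC 30.4 and 38.9 CPM in DBA and 76.4 and 89.2 CPM in BL6 (-1.17 ± 0.19, adjusted p = 0.000144). The 3 calls of higher level in DBA were all Sdhc, in Exc-Vwa5b1, Inh-Nxph2 and Inh-Sst. In Inh-Sst it had 32.0 and 34.4 CPM in DBA and 18.3 and 19.9 CPM in BL6 (0.84 ± 0.22, adjusted p = 0.0221). Exc-Tfap2c was the 1 tested type in which the summed level of both DBA libraries, 2268 and 2139 CPM, lay above both BL6 libraries, 1862 and 2137 CPM; 19 genes could be tested there and none was called, with 5 at an unadjusted p under 0.05. DESeq2 made 14 calls over all types, all lower in DBA, and edgeR made 25 without DBA library 2 and 32 without BL6 library 2.

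The starts of these genes were searched for open chromatin. RefSeq promoters, from 250 bases before to 50 after the start on GRCm38.p6, were at hand for 52 of the 64 genes, in 54 entries. Those of the called genes Ndufb4, Ndufs5, Ndufb10 and Cox5b, of Ndufb8 and of Cox6b2, the gene of the widest class difference, are printed 5′ to 3′, with capitals for matches to motifs of factors known to act at such genes. The motifs, chosen after the values were seen and searched on both strands, were GCGCATGCG and the shorter TGCGCA for NRF1, which can overlap, CCGGAAG for ETS factors, AAGATGGC for YY1 and GGGGCGGG for Sp factors.
Ndufb4: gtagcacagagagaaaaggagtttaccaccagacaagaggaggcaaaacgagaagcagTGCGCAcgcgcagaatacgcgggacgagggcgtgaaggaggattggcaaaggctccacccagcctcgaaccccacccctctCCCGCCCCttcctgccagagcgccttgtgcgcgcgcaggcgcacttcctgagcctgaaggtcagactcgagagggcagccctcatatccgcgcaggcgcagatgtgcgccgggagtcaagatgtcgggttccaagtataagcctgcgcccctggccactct
Ndufs5: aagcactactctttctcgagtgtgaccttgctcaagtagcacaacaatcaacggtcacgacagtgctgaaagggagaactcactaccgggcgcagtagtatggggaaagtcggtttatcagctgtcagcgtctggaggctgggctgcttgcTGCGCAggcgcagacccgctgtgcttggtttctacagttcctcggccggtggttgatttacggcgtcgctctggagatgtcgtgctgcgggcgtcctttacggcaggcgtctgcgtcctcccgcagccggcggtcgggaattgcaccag
Ndufb10: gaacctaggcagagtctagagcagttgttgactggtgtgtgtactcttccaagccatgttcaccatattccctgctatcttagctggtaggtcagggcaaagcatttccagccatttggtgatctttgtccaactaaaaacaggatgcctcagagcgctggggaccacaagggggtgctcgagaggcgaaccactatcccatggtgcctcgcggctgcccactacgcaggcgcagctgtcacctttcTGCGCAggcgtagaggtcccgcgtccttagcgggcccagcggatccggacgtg
Cox5b: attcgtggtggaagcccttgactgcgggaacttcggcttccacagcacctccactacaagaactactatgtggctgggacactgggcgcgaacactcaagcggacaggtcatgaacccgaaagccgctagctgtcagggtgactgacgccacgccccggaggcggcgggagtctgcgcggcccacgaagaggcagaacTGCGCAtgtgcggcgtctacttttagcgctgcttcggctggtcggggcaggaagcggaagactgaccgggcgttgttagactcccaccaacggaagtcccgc
Ndufb8: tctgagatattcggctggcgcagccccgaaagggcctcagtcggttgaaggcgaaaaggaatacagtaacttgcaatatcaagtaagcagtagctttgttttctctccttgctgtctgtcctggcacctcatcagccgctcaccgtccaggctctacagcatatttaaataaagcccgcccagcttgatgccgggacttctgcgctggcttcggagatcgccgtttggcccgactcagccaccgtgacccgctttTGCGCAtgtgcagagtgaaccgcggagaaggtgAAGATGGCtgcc
Cox6b2: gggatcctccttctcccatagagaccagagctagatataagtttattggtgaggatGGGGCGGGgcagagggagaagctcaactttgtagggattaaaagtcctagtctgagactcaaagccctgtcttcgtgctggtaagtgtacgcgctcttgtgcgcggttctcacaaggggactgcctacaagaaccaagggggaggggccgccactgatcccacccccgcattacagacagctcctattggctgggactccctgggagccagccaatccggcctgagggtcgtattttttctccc
They lie at chr16:37654319-37654618 (minus strand), chr4:123718137-123718436 (minus), chr17:24724374-24724673 (minus), chr1:36691237-36691536 (plus), chr19:44555393-44555692 (minus) and chr7:4753045-4753344 (minus), in that order. Of the 54 entries, 29.6% held TGCGCA, against 7.76% of all 32851 promoters of the table; all 4 called genes shown here held it, and so did genes that were not called, such as Ndufa6, Sdha and Uqcrc1. The share with GCGCATGCG was 9.26% against 1.75%, with CCGGAAG 20.4% against 8.86%, with AAGATGGC 13.0% against 2.75% and with GGGGCGGG 24.1% against 16.5%. Ndufb4 also held GGGGCGGG on the reverse strand, Ndufb8 held AAGATGGC just after its start, and Cox6b2 held GGGGCGGG alone. A match is a description of letters and not a binding site. Cox4i1, Cox6c and Sdhc have no entry in the table.

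No peak at these genes was called between strains. Of 77 peaks, taken up to 1 kb from a start or, where no promoter entry was found, up to 2 kb from the ends of the gene, edgeR called 0, against 6.18% of all peaks and 4.42% of peaks at the starts of any gene. DESeq2 called 0 as well, and 3 had an unadjusted p under 0.05. Non-neuronal nuclei were 1.81% and 2.97% of ATAC nuclei in DBA and 2.00% and 2.41% in BL6, so these sums are of neurons almost throughout. The peaks belonged to 63 genes, and their median log2 fold change was 0.07, the same as the 0.07 of peaks at all starts. The peak over the start of Ndufb4, chr16:37653579-37654743 in the authors' table, had 29.2 and 26.7 CPM in DBA and 26.5 and 29.2 CPM in BL6 (0.05 ± 0.10 on the log2 scale, adjusted p = 0.884). The peak at an end of Cox4i1 with the most counts, chr8:120667534-120668671, had 41.5 and 38.7 CPM in DBA and 38.1 and 40.1 CPM in BL6 (0.08 ± 0.10, adjusted p = 0.801), and both pairs overlapped. The smallest adjusted p was 0.0537, for a second peak at Ndufb7 with 4.84 and 5.05 CPM in DBA and 4.11 and 3.82 CPM in BL6.

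Other genes of the same pathway did not all follow the subunits. Over all nuclei, 15 assembly factors of complex I had a median log2 fold change of 0.01 with 0 called by edgeR and 0 at an unadjusted p under 0.05, and 17 genes of the tricarboxylic acid cycle had a median of 0.01 with 0 called and 2 at an unadjusted p under 0.05. The 17 regulators of mitochondrial biogenesis had a median of 0.09 with 0 called and 1 at an unadjusted p under 0.05. Of 31 assembly factors of complexes II to IV, 2 were lower and none higher, Cox16, described below, and Higd1a, which binds complex IV (13.6 and 15.3 CPM in DBA, 24.1 and 28.1 CPM in BL6, adjusted p = 0.0206). Of 18 genes of electron carriers and coenzyme Q synthesis, 2 were higher, among them Coq2, which attaches the isoprenoid tail (54.5 and 47.0 CPM in DBA, 33.4 and 30.9 CPM in BL6, adjusted p = 0.0206), and 1, Etfb, was lower. Of 16 glycolytic genes 2 were lower, Gapdh (32.4 and 35.8 CPM in DBA, 61.0 and 54.8 CPM in BL6, adjusted p = 0.0171) and Pkm (25.7 and 29.1 CPM in DBA, 40.3 and 43.1 CPM in BL6, adjusted p = 0.0412). These shares are to be read against the 3.18% of all genes called lower and 1.71% called higher.

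The remaining lists held larger shares of calls. Of 17 nuclear genes of ATP synthase, 1, Atp5o, was higher and 3 were lower, among them Atp5h (20.6 and 25.9 CPM in DBA, 43.6 and 47.7 CPM in BL6, adjusted p = 0.012) and Atp5l (25.8 and 23.9 CPM in DBA, 45.3 and 45.0 CPM in BL6, adjusted p = 0.00698). Of 78 cytosolic ribosomal protein genes, 41 were lower and none higher, with a median of -0.67, and their summed level was 1760 and 1968 CPM in DBA and 3006 and 3351 CPM in BL6. All 10 chain genes of the mitochondrial genome tested were lower, with a median of -1.77. The summed level of the mitochondrial chain genes was 406 and 806 CPM in DBA and 3639 and 5116 CPM in BL6. The DBA libraries thus lay far apart. The summed level of the nuclear subunits was 1539 and 1728 CPM in DBA and 1963 and 2041 CPM in BL6. All 3 sums rose in the same order, from DBA library 2 and DBA library 3 to BL6 library 2 and BL6 library 3. What lies behind this shared order was not tested. Some genes differed by amounts seen in every library and far beyond those of the subunits: mt-Co2, a catalytic subunit of complex IV, had 0.249 and 0.533 CPM in DBA and 588 and 829 CPM in BL6, Cox16, an assembly factor of complex IV, 8.18 and 7.62 CPM in DBA and 256 and 241 CPM in BL6, and Atp5o, a subunit of ATP synthase, 444 and 443 CPM in DBA and 29.2 and 30.6 CPM in BL6. Whether the gene models used for each strain have a part in these values or in those of the subunits was not tested.

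The strain difference of the 64 genes went with the length of the gene in the genome, a relation looked at after the values were seen. The genes span 0.932 to 105 kb, with a median of 7.39 kb (RefSeq, GRCm38.p6). The median log2 fold change over all nuclei was -0.36 for the 20 genes under 5 kb, -0.35 for the 22 of 5 to 10 kb, -0.20 for the 12 of 10 to 20 kb and 0.0028 for the 8 of 20 to 50 kb, and 0.18 for the 2 above 100 kb. All 6 called genes were under 10 kb. Over all genes tested the medians in the same ranges were -0.07, -0.04, -0.01, -0.01 and 0.04, so the subunits lay lower than other genes of their length below 20 kb. Spearman's rho between fold change and span was 0.51 over the 64 genes, which share the 4 libraries, and 0.09 over all genes; both are descriptions.

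**Figure D5:**
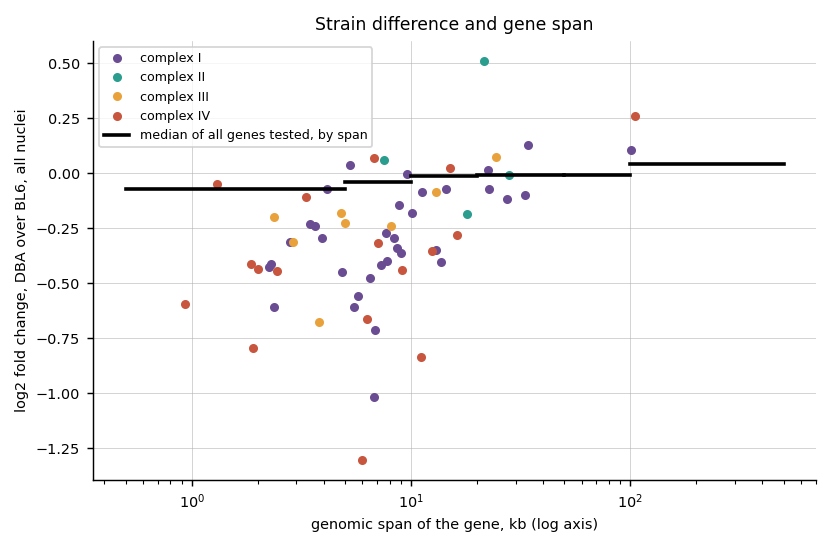
Log2 fold change of DBA over BL6 over all nuclei (y axis) against genomic span in kb (x axis, log scale), with 1 point for each of 63 genes, coloured by complex and a black line for the median of all genes tested in each range of span. Points below 10 kb lie mostly below the line, and the lowest is Cox4i1.

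Some counts may be shared with other genes. Copies named for Ndufa12, Ndufb4, Ndufs5, Cox5b and Cox7c were listed with counts in DBA and 0 counts in BL6: Ndufa12-ps 62, Ndufb4c 14, Ndufs5-ps 38, Cox5b-ps 7 and Cox7c-ps1 51 in DBA. These equal 0.608% to 2.41% of the DBA counts of the gene they are named for, and 3 of the 5 genes were among the 6 called over all nuclei. The same search by name found Cox6c2 for Cox6c, which was also called. Cox6c2 had 2 counts in DBA and 0 in BL6, or 0.0630% of the DBA counts of Cox6c. Reads that match a gene and its copy equally may be in neither count, so the levels of these 5 genes and of Cox6c are uncertain. Copies were looked for only by the name of a gene with a suffix. Copies under other names, of these or of the other genes, were not searched. In the RefSeq annotation 19 of the genes overlap another gene. Rnf113a1, Tmco6, Rbm10, Itgad, Bcl2l1 and Tmem30a overlap Ndufa1, Ndufa2, Ndufb11, Cox6a2, Cox4i2 and Cox7a2, and how the counting treated strand is not given in the sources used here, so these counts too are uncertain.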

How the data were processed

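Single-nucleus RNA and ATAC counts of the amygdala of the strains DBA and BL6 were used, 2 libraries per strain and assay; 16 methylation libraries were not analysed here. The deposited values are the authors' counts per gene or peak, added up by cell type within a library, and counts of nuclei. Per the submitters' processing notes, Cell Ranger 6.0.2, Seurat 4.0.5 and, for ATAC, Cell Ranger ATAC 2.0.0 were used on mm10; filters on nuclei, doublet removal and strand handling are not given in the sources used here.

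Here counts of all types, and of the excitatory, of the inhibitory and of the non-neuronal types, were added up and scaled to CPM. DBA was tested against BL6 with edgeR 4.0.16 (robust quasi-likelihood test, TMM, filterByExpr at 10 counts, Benjamini-Hochberg adjustment over all genes with 10 or more counts in each strain; adjusted p under 0.05 is a call). Cell types with 10 or more nuclei and 50000 counts in every library were tested, 20 of 22. Classes were compared with libraries as blocks. The fit was tested on simulated data. Alternatives were RLE factors, total counts, no filter, every gene of the table, DESeq2 1.42.0, each library left out, the library number as a block, 50 nuclei per column, a 1.5-fold threshold and, for peaks, 5 kb; a block of crossed numbers and the removal of Neuronal-Aldoa-Cst3 were added after seeing the data.

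The genes, lists and alternatives were chosen with earlier results of these data known. Genes are named where they are on the paralog list, called over all nuclei with the same direction in each class, among the 3 of a complex with the widest range over cell types, or among the 4 each way with the largest called class difference; up to 3 called genes are named per pathway list. Others were chosen after their values were seen. The values of 1 gene are not reported here by name. With 2 libraries per strain, precision is limited by the libraries rather than by counts, and counting error alone does not cover it. Library numbers in the tables are 2 and 3, and titles number otherwise, so libraries are named by the tables.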

Additional observations from a re-analysis of the deposited data

Results flagged for a closer look

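Cox6c differed in its strain effect between classes: the log2 fold change of DBA over BL6 in non-neuronal nuclei minus that in excitatory nuclei was -0.52 (edgeR interaction term, adjusted p = 0.0155). Its CPM were 44.5 and 54.8 in DBA and 99.7 and 103 in BL6 in non-neuronal nuclei. Cox6c was the only gene of 63 called in this contrast, where 3.39% of all genes were called in either direction. As given above, the call did not hold with each single library left out.

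Means over 4 libraries in the 2 cell types that were too small to test stood above every library of every tested type for 3 genes. Single libraries did not all do so. Cox4i2 had a mean of 25.7 CPM in NN-Endo-SMC-Peri, from 16 counts. Ndufs7, a core subunit of complex I, had a mean of 57.1 CPM in NN-Endo-SMC-Peri, from 30 counts, of which 3 were in DBA. Ndufs1 had a mean of 114 CPM in Exc-Strip2, with 244 and 43.5 CPM in DBA and 48.3 and 119.5 CPM in BL6. There DBA library 2 held 4 counts from 1 nucleus, and BL6 library 3 had 3 nuclei. DBA library 3 and BL6 library 2 lay below 71.4 CPM, the median of Ndufs1 over the tested types. These values were not tested.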

How the results depend on the processing

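Of the results called with DBA against BL6, Cox4i1 was called under every alternative over all nuclei and with any library left out in each class. The number of genes called over all nuclei, 6, was 10 with every gene of the table tested, 10 with DESeq2, 1 when a change over 1.5-fold was tested and 1 to 5 with 1 library left out. The excitatory count, 4, was 7 with every gene, 2 with DESeq2 and 2 to 9 with 1 library left out; the inhibitory count, 7, was 11, 4 and 2 to 8; the non-neuronal count, 14, was 9 with DESeq2 and 3 to 18 with 1 library left out. The calls summed over cell types, 57, were 14 with DESeq2 and 25 to 74 with 1 library left out. The single interaction call was 0 to 2, and the 33 calls of inhibitory over excitatory nuclei were 14 to 25. Taking peaks within 5 kb gave 1 call, lower in DBA, where there was 0. The cause of these shifts was not tested. Every share of all genes called that is given here belongs to a main fit. The counts of genes called under alternatives, above and below, have no such share beside them.

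Library numbers are shared between strains, but with 2 numbers nothing shows that they pair libraries: deviations from the strain means correlated at -0.40 in RNA and -0.07 in ATAC. With the number as a replicate block, 1 gene was called over all nuclei, 4 in the excitatory, 10 in the inhibitory and 13 in the non-neuronal sum, 66 over cell types and 0 peaks; the block gave log2 fold changes of 0.019 for Cox6b2 over all nuclei, and -0.015 for Cox6a1 and -0.030 for Uqcr10 in the excitatory sum, against the sign without it. With crossed numbers, added after seeing the data, 17 genes were called over all nuclei, 7 in the excitatory sum and 2 peaks, and Cox6b2 was at 0.015.

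Genes that were not called could change sign when 1 library was left out. Over all nuclei the log2 fold changes ran over Cox6a1 -0.37 to 0.11, Cox6b2 -0.59 to 0.72, Cox7b -0.12 to 0.23, Sdhd -0.0082 to 0.14, Sdha -0.049 to 0.038. In the excitatory sum the log2 fold changes ran over Cox7a2 -0.47 to 0.029, Uqcrb -0.73 to 0.053, Cox8a -0.77 to 0.10, Cox6a1 -0.36 to 0.32, Uqcr10 -0.21 to 0.17, Cox7b -0.070 to 0.42, Sdha -0.12 to 0.057. In the inhibitory sum the log2 fold changes ran over Cox6a1 -0.19 to 0.15, Cox6b1 -0.37 to 0.011, Uqcrb -0.10 to 0.13, Uqcr10 -0.055 to 0.18. In the non-neuronal sum the log2 fold changes ran over Cox4i2 -1.53 to 0.040, Cox6a1 -0.61 to 0.034, Uqcrb -0.40 to 0.022, Cox7b -0.41 to 0.14.

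Without Neuronal-Aldoa-Cst3, also added after seeing the data, 4 genes were called over all nuclei. Scaling by total counts moved the median of all genes by 0.16 between non-neuronal and excitatory nuclei, by -0.11 in the interaction of these classes, by -0.10 in NN-Astro and by -0.13 in NN-ODC, where 10 genes instead of 7 were called. Of the values of named genes under alternatives, 163 called and 655 uncalled ones kept direction and side of the threshold, 55 lost the call, 20 gained it and 29 changed sign.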
